A study of Mus musculus with 4 samples.

Results

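Imprinted genes are expressed from 1 parental chromosome, and the 51 mouse genes described here were chosen by name as genes with parent-of-origin expression, out of 49980 genes placed in the annotation. A 5-hydroxymethylcytosine (5hmC) peak belonged to a gene when the authors' annotation of that peak was the gene's symbol. By this rule the genes held 98 of the 56695 peaks of the day 20 list and 4 of the 1050 peaks of the day 0 list. The cells were ATDC5, a mouse chondrogenic line, kept in medium with serum, glutamine, antibiotics and ascorbic acid. The 2 chondroprogenitor libraries were taken at day 0, and the 2 chondrocyte libraries, after insulin, transferrin and selenite were added, at days 19 and 20. DNA carrying 5hmC was captured with the Hydroxymethyl Collector kit and sequenced, and the labels do not say whether libraries of a stage came from separate cultures. Each list came from merged samples of 1 stage and gives positions only, so there is no replicate error, depth or peak height behind any count below, and no comparison carries a test. A peak list does not measure RNA, so the cartilage identity of the cells could not be checked against marker expression. The capture does not tell the parental chromosomes apart, and the label imprinted was therefore not tested in these cells.

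Imprinting rests on regions of DNA that are methylated in only one of the egg and the sperm and keep that difference in the body, called germline differentially methylated regions. At many paternally expressed genes the region lies over the promoter, methylated on the silent maternal copy. In several clusters the active paternal copy makes a long noncoding RNA that silences neighbouring genes in cis, as Airn does for Igf2r and Kcnq1ot1 for Cdkn1c. TET enzymes oxidise 5-methylcytosine to 5hmC, which in differentiated cells is common in the bodies of active genes and at enhancers. Many imprinted genes control growth, among them the ligand Igf2, its clearance receptor Igf2r, the signalling adaptor Grb10 and the cell cycle inhibitor Cdkn1c, which acts in growth plate chondrocytes. By textbook knowledge 24 of the genes were classed as maternally expressed, 24 as paternally expressed and 3 (Gnas, Blcap and H13) as using different alleles for different transcripts. For 7 genes imprinting is known mainly from placenta and for 5 mainly from brain.

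Peaks lay beside several promoters that carry such a germline region. RefSeq promoter windows of GRCm38.p6, from 250 bases before to 50 bases after the gene start, were at hand for 40 of the 51 genes. The 5 below belong to the paternally expressed genes with a germline region at the promoter whose start had a day 20 peak within 2 kb. Capitals in the window of Plagl1, which encodes a zinc finger transcription factor that restrains growth, mark the 111 bases covered by a day 20 peak. In Mest, a gene of the hydrolase family, and in Mcts2 and Nnat, they mark TGCCGC or its reverse complement GCGGCA, the core letters read by ZFP57, the zinc finger protein that guards methylated imprints. Airn, the noncoding RNA that silences Igf2r, held neither form. All are written 5′ to 3′ on the plus strand: Plagl1 at chr10:13090582-13090881, Mest at chr6:30737800-30738099, Mcts2 at chr2:152686898-152687197, Nnat at chr2:157559828-157560127 and Airn at chr17:12741061-12741360.
Plagl1: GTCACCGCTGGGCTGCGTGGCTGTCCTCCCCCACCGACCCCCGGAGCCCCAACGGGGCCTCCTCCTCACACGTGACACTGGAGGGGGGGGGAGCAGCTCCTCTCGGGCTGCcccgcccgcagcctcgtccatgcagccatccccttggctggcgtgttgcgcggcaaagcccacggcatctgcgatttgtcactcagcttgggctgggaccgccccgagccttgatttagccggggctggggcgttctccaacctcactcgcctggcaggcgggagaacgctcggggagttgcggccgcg
Mest: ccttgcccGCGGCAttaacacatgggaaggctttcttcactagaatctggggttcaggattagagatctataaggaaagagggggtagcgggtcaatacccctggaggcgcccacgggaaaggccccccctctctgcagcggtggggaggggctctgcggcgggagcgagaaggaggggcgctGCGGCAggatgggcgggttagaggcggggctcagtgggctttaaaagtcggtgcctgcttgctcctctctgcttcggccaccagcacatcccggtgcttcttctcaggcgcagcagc
Mcts2: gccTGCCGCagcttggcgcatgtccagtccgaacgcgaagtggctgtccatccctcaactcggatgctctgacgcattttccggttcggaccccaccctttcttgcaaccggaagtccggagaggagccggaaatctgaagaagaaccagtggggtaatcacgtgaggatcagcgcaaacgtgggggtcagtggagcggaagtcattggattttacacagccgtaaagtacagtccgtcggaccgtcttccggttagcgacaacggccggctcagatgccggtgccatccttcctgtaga
Nnat: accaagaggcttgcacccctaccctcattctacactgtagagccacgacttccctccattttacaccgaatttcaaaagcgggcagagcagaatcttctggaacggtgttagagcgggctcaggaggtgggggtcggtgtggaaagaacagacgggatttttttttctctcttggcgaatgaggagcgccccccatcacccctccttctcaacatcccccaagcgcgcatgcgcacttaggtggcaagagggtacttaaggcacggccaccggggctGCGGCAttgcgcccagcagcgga
Airn: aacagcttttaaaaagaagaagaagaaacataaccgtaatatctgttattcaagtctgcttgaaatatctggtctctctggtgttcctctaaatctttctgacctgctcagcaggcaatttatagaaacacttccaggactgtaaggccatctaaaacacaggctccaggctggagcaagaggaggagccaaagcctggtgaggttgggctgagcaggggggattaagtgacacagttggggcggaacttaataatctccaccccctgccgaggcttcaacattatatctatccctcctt

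In each of these 5 genes the nearest day 20 peak ended before the start, on its upstream side. The Plagl1 peak (chr10:13089977-13090692, 716 bp) ended 140 bp before the start. It covered the first 111 bases of the window, while the 1 match to the motif, at position 161, lay outside it. The Mest peak of 1051 bp (chr6:30736683-30737733) ended 317 bp before the nearest of its 3 annotated starts. The peak nearest to Mcts2, a retrogene within an intron of H13, had the symbol H13, was 438 bp wide (chr2:152686273-152686710) and also ended 438 bp before the start. For Nnat, a small membrane protein gene nested in Blcap, the gap was 1087 bp to a peak with the symbol Blcap. For Airn it was 1455 bp to a peak with the symbol Igf2r. None of the 5 starts itself was covered.

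Of the 10 genes with both a germline region at the promoter and a window, 5 had a day 20 peak within 2 kb of a start, against 20.1% of the 27025 genes with a window. Within 1 kb there were 3 of 10, against 13.6%, and within 5 kb again 5 of 10, against 32.4%. Among the other 30 genes with a window, 3 had a peak within 2 kb of a start: Blcap, Copg2 and Rian. The remaining 5 genes with a germline region had their nearest peak much farther away, at 7.10 kb for Zrsr1, 17.2 kb for Kcnq1ot1, 485 kb for Peg3 and Usp29 and 1174 kb for Snrpn. The median over the 10 was 4.28 kb, over the 40 members 8.54 kb, and over all genes with a window 12.7 kb. The window itself overlapped a day 20 peak in 2 of the 40 members, Plagl1 and Copg2, against 5.25% of all genes with a window. In Copg2, which encodes a coat protein subunit of Golgi vesicles, the peak had the symbol of the neighbour Tsga13. TGCCGC on either strand was present in 6 of the 15 windows of genes with a germline region, from 5 genes, and in 11.6% of all 32851 windows. The 6 include overlapping Mest windows that begin at 30737800 and 30737803. Over all member windows it was present in 14 of 57 (24.6%), so members not classed as having a germline region at the promoter also held it. Windows of genes with a germline region had a median of 10 CpG sites, against 15 over all member windows and 7 over all windows. A match to these letters is not a measured binding site. The distances of 1, 2 and 5 kb were chosen after the values were seen.

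**Figure D1:**
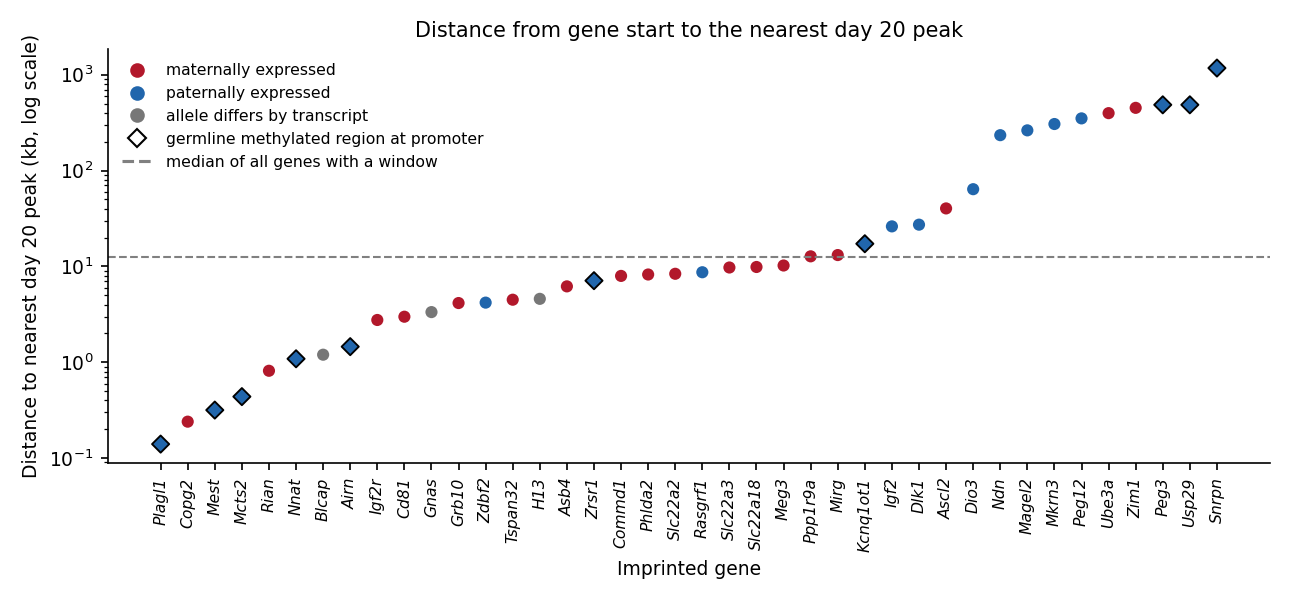
Distance in kb (log scale) from the start of each of the 40 imprinted genes with an annotated promoter window to the nearest day 20 5hmC peak, using the nearest of a gene's starts. Colours give the expressed allele, diamonds mark a germline methylated region at the promoter, and the dashed line is the median of all genes with a window, 12.7 kb. Plagl1, Mest, Mcts2, Nnat and Airn lie within 2 kb, and Snrpn lies farthest at 1174 kb.

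Across the whole set, 28 of the 51 imprinted genes carried at least 1 day 20 peak by symbol (54.9%, Wilson 95% interval 41.4 to 67.7%, counting error only), against 43.9% of the 21900 protein-coding genes. For the 43 protein-coding members the count was 23 (53.5%). Of the 7 long noncoding members 4 carried one, against 5.59% of the 12727 lncRNA genes in the table. Counted by overlap with the gene body under any symbol, 23 of the 51 had a day 20 peak, against 40.5% of protein-coding and 33.7% of lncRNA genes. By that count only Airn, Mirg and Kcnq1ot1 of the 7 long noncoding members had one, so their contrast by symbol depends on how peaks were named. Of the members 14 held 3 or more by symbol (27.5%), against 16.0% of protein-coding genes, without matching for length. The share with a peak rose with length over protein-coding genes. It was 18.7% for protein-coding genes under 10 kb, 43.6% for those of 10 to 30 kb, 66.6% for those of 30 to 100 kb and 80.1% for those of 100 kb or more. With those shares applied to the lengths of all 51 members, 8 of them noncoding, the number would be 26.3, close to the 28 found. As a set the imprinted genes thus carried peaks about as often as protein-coding genes of like length. For the 43 protein-coding members alone such a number was not computed. Peaks were concentrated in few genes: Airn, Grb10, Kcnq1, Ppp1r9a, Igf2r and Trappc9 together held 51 of the 98.

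**Figure D2:**
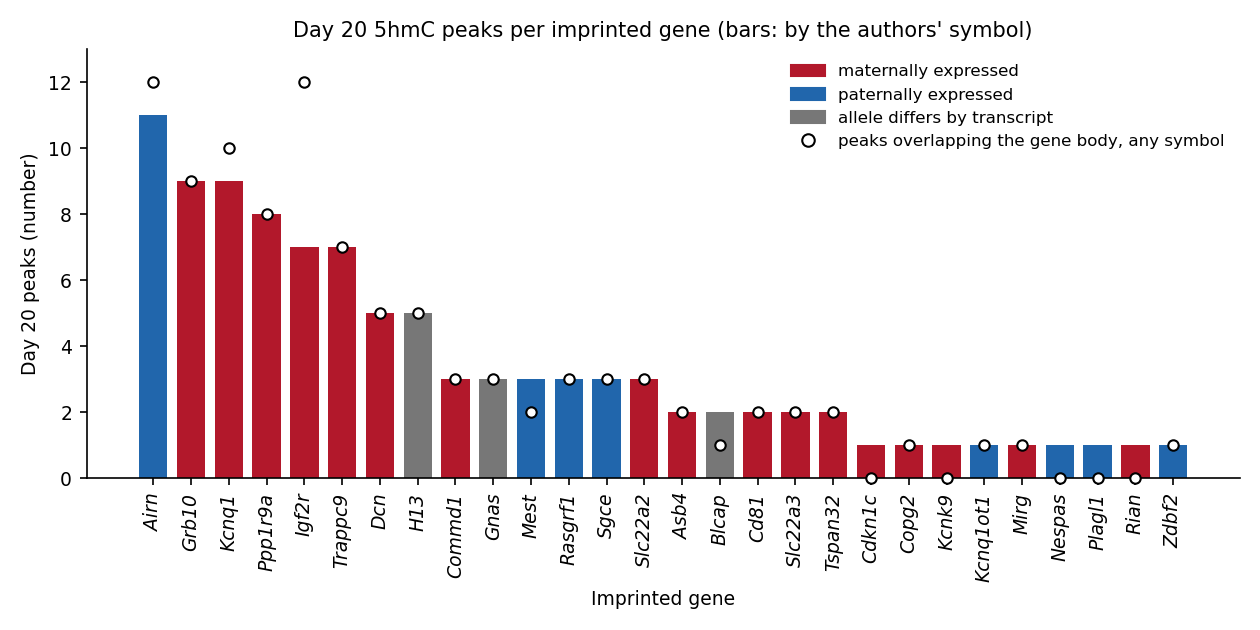
Number of day 20 5hmC peaks for the 28 imprinted genes that had at least 1, by the authors' symbol (bars, coloured by expressed allele), with the number overlapping the gene body under any symbol (circles). Airn has the most by symbol with 11, and Igf2r rises from 7 by symbol to 12 by position.

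The members' day 20 peaks resembled the rest of the list in width. Their median width was 635 bp (quartiles 495 and 845.5 bp), against 591 bp (458 and 783.5 bp) over all day 20 peaks. The widest, in Kcnq1, spanned 1598 bp, and 14 of the 98 exceeded 1 kb (14.3%), against 12.4% of the list. Of the 98 peaks, 91 overlapped the body of the gene they were named for. The other 7 lay between 140 and 2867 bp outside, 1 each at Plagl1, Mest, Nespas, Rian, Cdkn1c, Blcap and Kcnk9. In the 19 genes with a known strand and a peak in the body there were 68 different peaks, of which 5 lie in both Igf2r and Airn. With these 5 counted once, the median position was 52.2% of the way from the gene's start to its end, with 14 peaks in the first 20% and 16 in the last 20%.

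Maternally expressed genes carried day 20 peaks more often than paternally expressed genes. Of the 24 maternally expressed genes 17 had at least 1 (70.8%, 50.8 to 85.1%), with 64 peaks in all and a median of 1.5 per gene. Of the 24 paternally expressed genes 8 had at least 1 (33.3%, 18.0 to 53.3%), with 24 peaks in all, 11 of them in Airn, and a median of 0. The background over protein-coding genes, 43.9%, lay between these shares, whose intervals overlapped between 50.8 and 53.3%. No paternally expressed gene was classed as imprinted mainly in placenta or brain. Without the genes so classed, 8 of 13 maternally expressed genes had a peak (61.5%, 35.5 to 82.3%), with 31 peaks. The paternal count stayed at 8 of 24. All 3 genes with alleles that differ by transcript carried peaks, 10 in all. Peak width hardly differed, with medians of 634 bp for maternally and 628.5 bp for paternally expressed genes.

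The allele groups also differed in length, and among the members both length and chromosome moved with the share of genes with a peak. The allele groups were alike in their split by chromosome 7, with 14 of 24 maternally and 15 of 24 paternally expressed genes outside it. The median length was 45.5 kb for maternally and 14.6 kb for paternally expressed genes, and 9 paternally expressed genes were shorter than 10 kb, none of which carried a peak. At the shares of protein-coding genes of the same length classes, 13.6 maternally and 11.0 paternally expressed genes would carry one, against the 17 and 8 found. From 30 kb upwards the counts were 13 of 15 and 6 of 9, where Ube3a and Meg3 on the maternal side and Impact, Usp29 and Snrpn on the paternal side lacked a peak. Below 30 kb they were 4 of 9 and 2 of 15. On chromosome 7, which holds 4 of the loci, 5 of 19 members had a peak, and on the other chromosomes 23 of 32. Members on chromosome 7 had a median length of 15.2 kb and the others 42.6 kb. The chromosome 7 members without a peak include all 6 of Snrpn-Ube3a and all 3 of Peg3-Usp29. A share over all genes of chromosome 7 was not computed. Without chromosome 7 the counts were 13 of 14 maternally and 7 of 15 paternally expressed genes, with median lengths of 71.3 and 14.2 kb. Per 100 kb of gene body there were 3.31 peaks for maternally and 1.56 for paternally expressed genes, and without chromosome 7 there were 3.46 and 3.69. The paternal values rest on Airn, which holds 12 of the 21 paternal body peaks outside chromosome 7. Without Airn they were 0.773 over all chromosomes and 1.99 without chromosome 7. The 5 peaks in both Igf2r and Airn count for both alleles in these densities. Whether length, chromosome and the tissue of imprinting account for the difference was not tested.

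**Figure D3:**
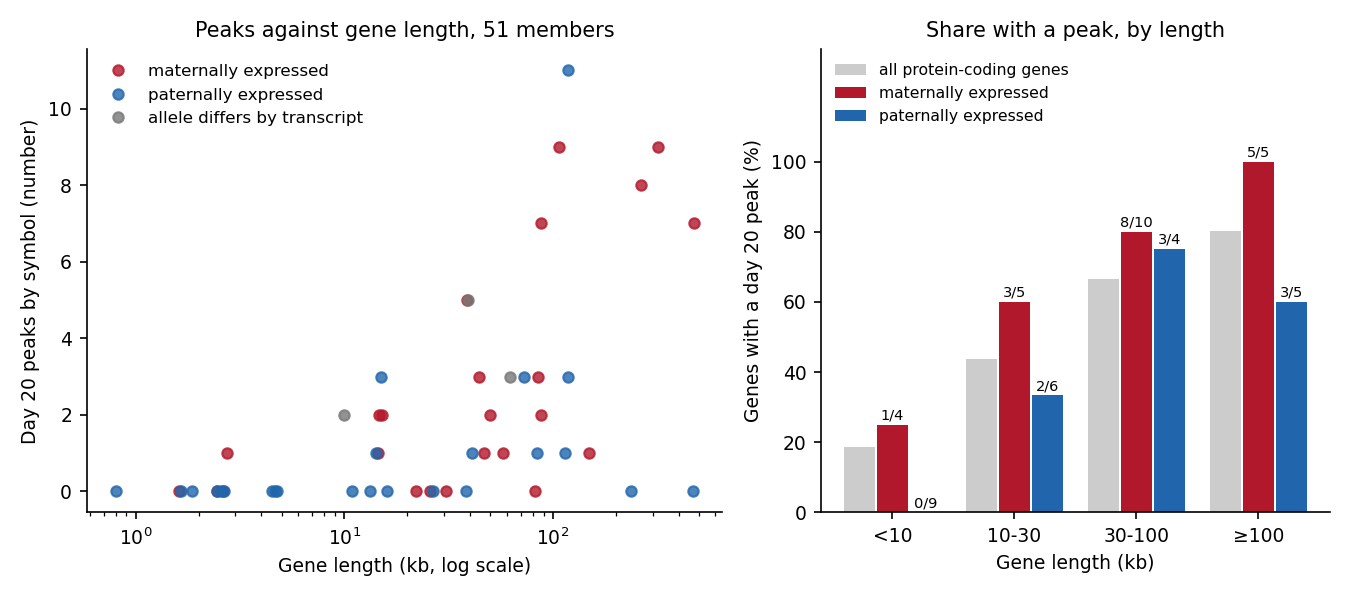
Left, day 20 peaks by symbol against gene length (kb, log scale) for the 51 imprinted genes, coloured by expressed allele. Right, percentage of genes with a day 20 peak in 4 length classes for all protein-coding genes (grey) and for maternally (red) and paternally (blue) expressed genes, with the counts above the bars. The grey share rises from 18.7% to 80.1%, and 0 of 9 paternally expressed genes under 10 kb carry a peak.

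The day 0 list was far shorter than the day 20 list and its peaks narrower, with median widths of 134 and 591 bp. At day 0, 4 members had a peak by symbol (7.84%), against 1.81% of protein-coding and 0.134% of lncRNA genes. These were Airn, Asb4, Kcnq1 and Rasgrf1, with 1 peak each, so 2 were maternally and 2 paternally expressed. The 4 genes were 49.6 to 320.2 kb long, and the day 0 shares were not matched for length. The peaks were 112 to 193 bp wide. Only the Asb4 peak (chr6:5413372-5413534), in a gene for a subunit of a ubiquitin ligase, lay within a day 20 peak, which was 716 bp wide (chr6:5413058-5413773). The Airn peak (chr17:12758047-12758230) lay 311 bp from the nearest day 20 peak, the one in Rasgrf1, which encodes an activator of Ras, 2414 bp and the one in Kcnq1, a potassium channel gene, 6037 bp. By overlap with the gene body 6 members had a day 0 peak, against 1.76% of protein-coding and 0.770% of lncRNA genes, because the Airn peak also lies in Igf2r and a peak without a symbol (chr6:30804808-30804959) lies in Copg2. Of the members' 98 day 20 peaks 1 overlapped a day 0 peak (1.02%), against 0.841% of the day 20 list. Over the whole day 0 list 49.5% of peaks overlapped a day 20 peak. With 4 peaks the members' share cannot be told from that, since 1 of 4 has a Wilson interval of 4.56 to 69.9%.

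Locus by locus, 15 of 19 had at least 1 member with a day 20 peak by symbol, and 4 had none: Igf2-H19, Peg3-Usp29, Snrpn-Ube3a and Impact. Counting every peak between the first and the last member of a locus, whatever its symbol, 10 of the 19 were denser than their own chromosome, and 12 were denser than the autosomes as a whole, which held 23.0 peaks per Mb. Several loci span only 1 gene or a few kb, and a gene body is denser than a chromosome on average, so short spans are given for description.

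**Figure D4:**
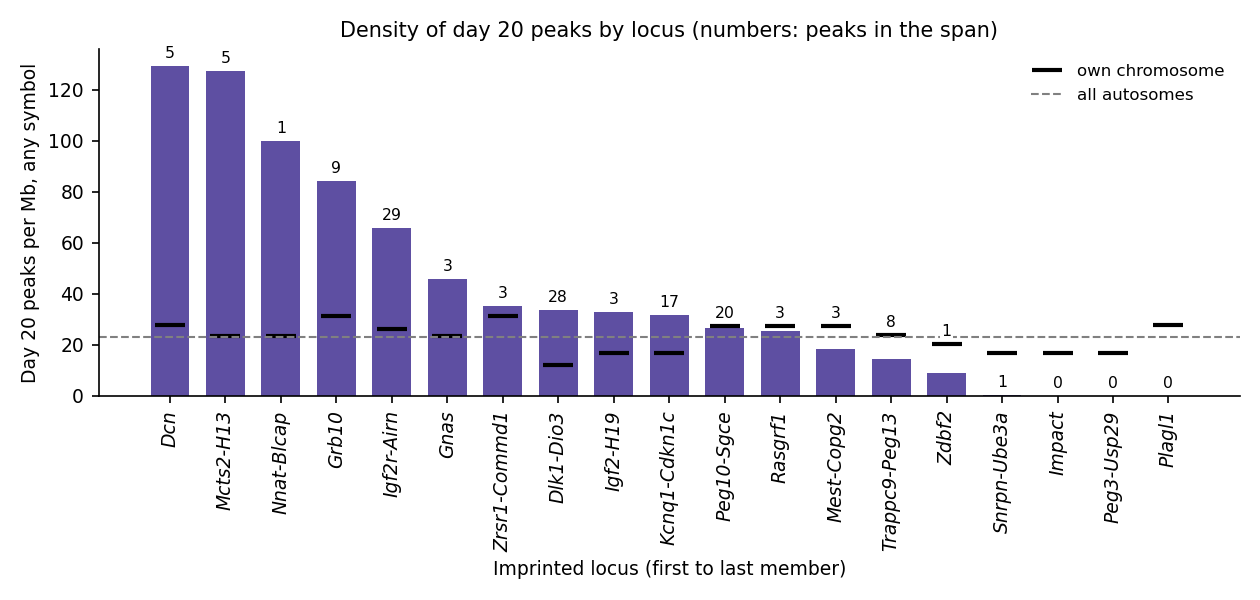
Day 20 peaks per Mb between the first and last member of each of the 19 imprinted loci, any symbol, with the number of peaks above each bar, the density of the locus's own chromosome (black dash) and that of all autosomes (grey dashed line, 23.0 per Mb). The Igf2r-Airn locus holds 29 peaks, while Impact, Peg3-Usp29 and Plagl1 hold none inside the span and Snrpn-Ube3a holds 1 in 3.24 Mb.

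The Igf2r-Airn locus held more day 20 peaks than any of the other loci, 29 against 28 in Dlk1-Dio3, but several shorter loci were denser. Igf2r (chr17:12682406-12769706, minus strand) encodes the receptor that carries IGF2 and lysosomal enzymes to lysosomes, and Airn (chr17:12741311-12859884, plus strand) starts inside it and runs out past its promoter. By symbol Igf2r had 7 day 20 peaks and Airn 11. Another 5 day 20 peaks overlapped the Igf2r body but had the symbol Airn, which makes 12 by position, and the 1 day 0 peak in the Igf2r body also had the symbol Airn. All peaks in the 28.4 kb shared by both genes were named Airn, and all in the 58.9 kb of Igf2r alone were named Igf2r. No peak in the Igf2r body was without a symbol. In the 90.2 kb of Airn alone, 6 were named Airn and 1 was named for Mas1, a receptor gene that overlaps the end of Airn.

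The 19 day 20 peaks were spread over both genes. The 7 in Igf2r alone began at 12688423, 12691652, 12706340, 12709896, 12722021, 12725837 and 12739422, with widths of 435 to 1272 bp and a median of 943 bp. The 5 in the shared stretch began at 12749442, 12756926, 12760422, 12761616 and 12765868, with widths of 490 to 1078 bp. The 7 in Airn alone began at 12781228, 12783375, 12792158, 12793873, 12820055, 12835810 and 12845808 (the one named Mas1), with widths of 473 to 1246 bp. The shared stretch was thus the most densely covered. Per 100 kb this was 11.9 peaks in Igf2r alone, 17.6 in the shared stretch and 7.76 in Airn alone. Peaks covered 10.3%, 12.99% and 5.76% of these stretches. Around the Airn start, whose promoter window is printed above, no peak lay between 1455 bp upstream and 8131 bp downstream. The Igf2r start was 2761 bp from its nearest peak, which lay inside the gene. Over the body, Igf2r had 13.7 peaks per 100 kb and Airn 10.1. Slc22a2 and Slc22a3, organic cation transporters that are imprinted in placenta, had 3 and 2 peaks. The span from Slc22a3 to Airn held 65.9 peaks per Mb, against 26.3 on chromosome 17.

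**Figure D5:**
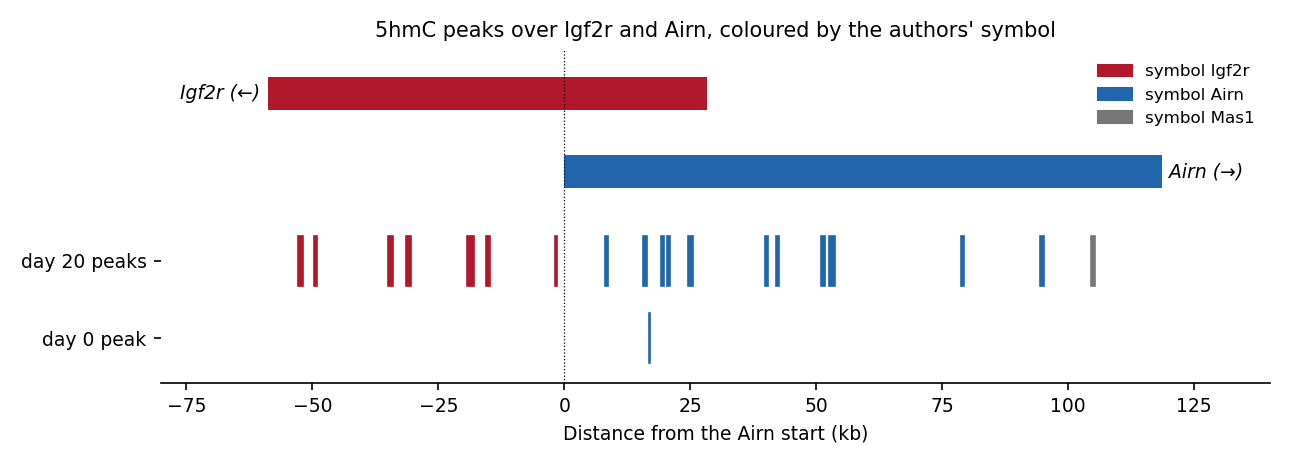
Day 20 and day 0 5hmC peaks over Igf2r and Airn, drawn to scale by distance in kb from the Airn start, with gene bodies above (arrows give the direction of transcription) and colours for the authors' symbol. The 5 day 20 peaks where the genes overlap all have the symbol Airn, the single day 0 peak lies among them, and the stretch just after the Airn start is free of peaks.

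The Kcnq1 cluster on chromosome 7 showed an uneven spread around its noncoding RNA. Kcnq1 (chr7:143106877-143427050) had 9 day 20 peaks by symbol and 10 by position, the additional one named for Kcnq1ot1, which lies within it and silences the cluster on the paternal chromosome. The 130.5 kb of Kcnq1 at higher coordinates than Kcnq1ot1 held 7 peaks (5.36 per 100 kb), among them the widest of any member (chr7:143375571-143377168). The 83.4 kb of Kcnq1ot1 held 1 (1.20 per 100 kb) and the 106.2 kb at lower coordinates 2 (1.88 per 100 kb). The Kcnq1 peaks began at 143156525, 143180847, 143313789, 143374547, 143375571, 143390240, 143399585, 143407997 and 143416334, and were 326 to 1598 bp wide. The Kcnq1ot1 peak (chr7:143273781-143274147) was 367 bp wide. Cdkn1c, the cyclin-dependent kinase inhibitor p57, had 1 peak of 700 bp that lay 2169 bp beyond its body (chr7:143463228-143463927). The tetraspanin genes Cd81 and Tspan32 had 2 peaks each. Phlda2, Slc22a18 and Ascl2, regulators of placental growth, transport and trophoblast fate, had none. The whole span held 31.7 peaks per Mb, against 16.96 on chromosome 7.

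The Igf2-H19 and Dlk1-Dio3 loci held peaks that mostly had no gene symbol. Neither Igf2, the fetal growth factor, nor the noncoding RNA H19 had a peak in either list, also not within 5 kb of the gene body. Between them lay 3 day 20 peaks without a symbol (chr7:142599757-142600585, chr7:142621994-142622647 and chr7:142630688-142631332), at 21.6, 43.8 and 52.5 kb from H19. In Dlk1-Dio3 the members had only 2 peaks, 1 of 476 bp beside Rian, a host of small nucleolar RNAs, and 1 of 1382 bp over the end of Mirg, a host of miRNAs. Dlk1, a Notch-like ligand that marks progenitors, the noncoding RNA Meg3 and the deiodinase gene Dio3 had none. The span held 28 day 20 peaks, 25 of them without a symbol, or 33.8 per Mb against 12.2 on chromosome 12. Of these, 22 lay in the 529.8 kb between Mirg and Dio3, with a median width of 656 bp. The members' counts thus miss most peaks of this locus.

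The locus also holds 58 annotated miRNA hairpins, of which 2 overlapped a day 20 peak. Both lie opposite each other in Rtl1, a retrotransposon-derived gene, where a peak of 670 bp begins (chr12:109595354-109596023, symbol Rtl1). Their mature arms inside the peak, from RefSeq with the seed (bases 2 to 8) in capitals, come from opposite strands and have different seeds: miR-136-3p lies at chr12:109595366-109595387 on the plus strand and miR-3071-5p at chr12:109595363-109595384 on the minus strand.
mmu-miR-136-3p: aUCAUCGUcucaaaugagucuu
mmu-miR-3071-5p: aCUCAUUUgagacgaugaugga

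Single genes and pairs elsewhere carried most of the remaining peaks. Grb10, an adaptor that dampens insulin and IGF receptor signalling, had 9 day 20 peaks across 106.9 kb (chr11:11930499-12037428) and no day 0 peak. They began at 11932313, 11934690, 11953367, 11960191, 11965414, 11983263, 12010972, 12018404 and 12032811, and were 462 to 986 bp wide with a median of 675 bp. Its start was 4148 bp from the nearest of them. The Grb10 peaks were thus spread from one end of the gene to the other.

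Dcn and H13 held 5 day 20 peaks each in bodies of 38.7 and 39.2 kb. Dcn encodes decorin, a small proteoglycan of cartilage and connective tissue that is imprinted in placenta. Its 5 day 20 peaks (298 to 708 bp) within chr10:97479500-97518163 began at 97479245, 97480451, 97497641, 97515095 and 97516661, so that the first spans the edge of the gene body. H13, which encodes a signal peptide peptidase, had 5 within chr2:152669422-152708668, beginning at 152674049, 152675092, 152686273, 152691388 and 152705005, with the widest at 1577 bp. The peak beginning at 152686273 is the one next to the Mcts2 promoter printed above. Per 100 kb of body, Dcn (12.9) and H13 (12.7) were close to Igf2r (13.7), and Grb10 had 8.42. The neighbour pair Gnas and Nespas was sparser. Gnas, which encodes the stimulatory G protein subunit used by the PTHrP receptor in the growth plate, had 3 peaks beginning at chr2 positions 174333343, 174342868 and 174344728 (436 to 729 bp). Nespas, its antisense transcript, had 1 of 585 bp at 966 bp outside its body.

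Trappc9 and Ppp1r9a held several peaks each in long bodies, Trappc9 below and Ppp1r9a above the 2.76 peaks per 100 kb over all members. Trappc9, a vesicle tethering factor imprinted in brain, had 7 in 471.6 kb (1.48 per 100 kb), beginning at chr15 positions 72651744, 72779504, 72780270, 72804595, 72819394, 72942608 and 73031039, with widths of 515 to 942 bp. Ppp1r9a, encoding the actin-binding protein neurabin and imprinted in placenta, had 8 in 262.8 kb (3.04 per 100 kb). These began at chr6 positions 4948107, 4952988, 4986952, 4993666, 5005309, 5108585, 5110312 and 5142396, with widths of 407 to 744 bp. Neither gene had a day 0 peak. Their peak widths lay within the range of the other members.

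Among genes with 3 day 20 peaks, Sgce, encoding a sarcoglycan, held them at chr6 positions 4717415, 4733977 and 4740800 (328 to 1044 bp). Commd1, a copper metabolism and trafficking factor, held them at chr11 positions 22927838, 22928695 and 22964510 (397 to 645 bp). Rasgrf1 held them at chr9 positions 89918468, 89921797 and 90009957 (555 to 846 bp), the first near its day 0 peak. Mest held them at chr6 positions 30730019, 30736683 and 30745631 (332 to 1051 bp), of which the first lay upstream of all its starts and the next between them. Slc22a2 held them at chr17 positions 12605528, 12621182 and 12627899 (488 to 1018 bp). Some of these peaks lay close together, such as a pair in Commd1 that begin within 1 kb of each other and a pair near the start of Rasgrf1. Asb4 and Blcap had 2 each, and Copg2, the potassium channel gene Kcnk9 and Zdbf2 1 each, the last 270 bp wide and the narrowest of any member.

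Zrsr1, nested in an intron of Commd1, Peg10, which adjoins Sgce, Mcts2, Nnat and Peg13 had none by symbol, although Mcts2, Nnat and Peg13 had peaks within 5 kb of their bodies. Zrsr1, Mcts2, Nnat and Peg13 lie inside a larger gene, and the peak nearest to each carried the symbol of the host. For Peg13 this was a Trappc9 peak that ended 135 bp from its body.

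The Snrpn-Ube3a and Peg3-Usp29 clusters on chromosome 7 stood almost free of peaks. All 6 members of the first lacked a peak in both lists, from the splicing gene Snrpn and the MAGE family genes Ndn and Magel2 to Mkrn3, Peg12 and the ubiquitin ligase gene Ube3a. Its 3.24 Mb held 1 day 20 peak and 1 day 0 peak, both without a symbol, or 0.309 day 20 peaks per Mb against 16.96 on the chromosome. Snrpn had no day 20 peak within 500 kb on either side, and Ndn, Magel2, Mkrn3 and Peg12 had 1 each. The median protein-coding gene had 29, and 11.2% had 1 or none. Peg3, a zinc finger gene, Usp29 and Zim1 had none in their bodies, and a stretch of 1.05 Mb around them was free of day 20 peaks. Impact, a regulator of translation on chromosome 18, also had none, but 29 lay in its flanks of 500 kb. Of the 23 members without a day 20 peak, 14 were on chromosome 7, which holds 19 of the 51 members.

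Most genes that set, read or remove the imprint carried a day 20 peak. Of 23 such genes, with a median length of 40.2 kb, 16 carried one (69.6%), and 1 carried a day 0 peak. At the shares of protein-coding genes in the same length classes the number would be 13.1. The share over protein-coding genes of any length was 43.9%, and over those of 30 to 100 kb it was 66.6%. The most were in Tet1 with 7 and Tet3 with 6, enzymes that oxidise 5-methylcytosine, in Smchd1, a chromatin protein of imprinted clusters, with 4, and in the maintenance methyltransferase gene Dnmt1 and in Tet2 with 3 each. Tet1 also had the list's 2 day 0 peaks. The 7 genes without one were Zfp57, Zfp445, Trim28 and Setdb1, whose products hold methylation at imprints, Hells, Eed and Ehmt2.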

How the data were processed

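Peaks of 5hmC from 4 libraries of ATDC5 DNA were used as 2 deposited lists, 1 per stage. Each holds 10-fold peaks of merged samples, per the file headers. The reference of that fold, and whether the day 19 library entered the day 20 list, were not stated in the sources. The other deposited values are start and end positions in base pairs, used as given, with width as end minus start plus 1. The submitters' processing notes name BWA, cutadapt, FastQC and MACS 1.4.2, with no role or order, and the build GRCm38, also called mm10. Of the day 20 entries 3 had no readable end and were left out, none with a member's symbol. Depth is unknown.

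Peaks were assigned by symbol and, as alternatives, by overlap of at least 1 bp with the gene body or its 5 kb margins. Gene bodies, starts and strand came from RefSeq tables of GRCm38.p6. Of the 51 members 50 matched by symbol and Nespas by an older symbol. For the background, 98.9% of day 0 and 99.95% of day 20 symbols matched a gene. Locus density is peaks per Mb from the first to the last member. Alleles, loci, germline regions and other gene lists came from textbook knowledge. Members and lists were chosen with earlier results of these data known. The text names every member, with positions for those with 3 or more day 20 peaks, those with a day 0 peak and Igf2r. Other genes are named when they lead their locus or list, when a listed gene of the imprint machinery lacks a peak, or when their peaks overlap a member. Genes and peaks are not replicates, so no test was run. Assignment, overlap and merging were tested on simulated data. Computation used Python 3.11.15, numpy 2.4.6, pandas 2.3.3, scipy 1.17.1 and matplotlib 3.10.9.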

Additional observations from a re-analysis of the deposited data

How the results depend on the processing

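Of 78 values under 12 alternatives, 66 stayed within 1.5 times the reported one. Several of the 66 could not move under their alternative, so this tally overstates how stable the results are. The Snrpn and Peg3 clusters held only members without a day 20 peak. Leaving out Airn cannot change Igf2r or maternal counts, and no paternally expressed gene was classed as imprinted in placenta or brain alone. Igf2r rose from 7 day 20 peaks to 12 by gene body and to 12 with 5 kb margins. With peaks wider than their list's median alone, the members' peaks fell from 98 to 54, maternal from 64 to 35 and paternal from 24 to 13, and paternally expressed genes with a peak from 8 to 5. Without genes imprinted in placenta or brain alone, 18 of 39 members had a peak, with 63 peaks, and maternally expressed genes 8 of 13, with 31 peaks, against 8 of 24 paternally expressed. Without Airn, paternal peaks fell to 13. Counting peaks within 1 kb as shared gave 2 instead of 1. These changes follow from fewer peaks or genes, or from wider assignment. The number of maternally expressed genes with a peak exceeded that of paternally expressed genes under 8 of 9 alternatives and equalled it, from fewer genes, in the other. Alternatives on members of 20 kb or longer (13 of 17 against 6 of 10), without chromosome 7, without the Snrpn and Peg3 clusters and of peak density without Airn were chosen after seeing the data. No paired analysis was possible because each stage has 1 merged list, which also bars leaving out a library. Unknown depth and the differing length of the lists limit any reading of absence, and a gene without a peak may still carry 5hmC below the authors' threshold.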

Other observations

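In 17 of the 19 loci at least 1 listed neighbour carried a day 20 peak. Of 77 neighbours found in the gene table, 46 carried a day 20 peak by symbol (59.7%), against 43.9% of protein-coding genes, with 184 peaks in all, and 3 a day 0 peak (Bcl2l1, Osbpl1a and Ptk2). At the shares of protein-coding genes in the same length classes, 38.7 neighbours would carry a day 20 peak. Phactr2, beside Plagl1, and Dync1i1, a dynein chain gene beyond Asb4, had 21 day 20 peaks each. The next were Atp10a, a phospholipid transporter beside Ube3a, with 9, and Adam23, Ago2, Ptk2 and Ehbp1 with 8 each, of which Ptk2 was named after its values were seen. In the Kcnq1 cluster only 1 of 8 neighbours, Osbpl5, had any, and around Peg3 and around Rasgrf1 none of 2 and none of 3 did. The nearest Atp10a peak lay 397 kb from Ube3a.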
